A study of Homo sapiens with 9 samples.

Results

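The retinoid genes followed here are 9 of the 16199 genes with a count above 0 in at least 1 library. They encode enzymes that interconvert retinol and retinal or make retinoic acid, a protein that carries it and receptors that sense it, and they were taken by gene symbol: RDH10, RDH16, DHRS9, SDR16C5, DHRS3, ALDH1A3, CRABP2, RARA and RARG. All 9 were listed in each of the 9 libraries, and all 9 were among the 12394 genes that passed the count filter and were tested. The cells were HaCaT keratinocytes, an immortalized human cell line described as wild type, grown with fetal bovine serum and treated after they had become confluent. The 3 groups of 3 libraries were untreated cells in serum-free medium, cells given epidermal growth factor (EGF) at 10 nM for 24 h, and cells given bleogen pB1 at 1 µM for 24 h. The titles of the untreated libraries give no time. EGF is the natural ligand of the EGF receptor, and bleogen pB1 is a small cysteine-rich plant peptide that also activates this receptor. All groups come from 1 cell line, and nothing in the labels says that replicates were separate cultures, so the p-values measure only the spread between these libraries.

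Retinol (vitamin A) is oxidized reversibly to retinal by dehydrogenases of the short-chain family, and retinal is then oxidized irreversibly to retinoic acid by retinal dehydrogenases. Retinoic acid is carried by small binding proteins to nuclear receptors (RARs), which pair with RXRs on DNA and switch genes on or off. In epidermis retinoic acid is known for its strong influence on keratinocyte growth and differentiation, and RARG is the RAR best known from this tissue.

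The libraries held between 20288417 and 21320994 expected counts (estimates that share reads among the transcripts they fit), and 3 counts, the smallest level regarded as detectable, corresponded to 0.141 to 0.148 CPM (counts scaled to library size). This floor covers counting error only. Levels are given as FPKM, which corrects for gene length and depth, and differences as log2 fold changes of the counts from edgeR's quasi-likelihood test, with p adjusted over all 12394 genes. A gene was called changed at an adjusted p of at most 0.05 and a log2 fold change of at least 0.5 in size. All 8 keratinocyte markers examined reached 1 FPKM, whereas 0 of 7 fibroblast and 0 of 4 melanocyte markers did, with TYR at 0 in all libraries. Of 4 leukocyte markers, CD68 reached it (5.74 to 11.3 FPKM), and PTPRC, CD3E and CD14 stayed at or below 0.17 FPKM. CD68 was highest with EGF. The summed FPKM of the keratinocyte markers was 4766 to 5262 in untreated libraries, 3881 to 4116 with EGF and 4910 to 5683 with bleogen pB1. The members of this list went both ways with EGF. The mean FPKM of KRT5, the most abundant of them, was 3506 in untreated cells and 1547 with EGF, and those of CDH1 and DSP were also lower, whereas KRT14 stood at 1008 and 1772 and ITGA6 at 101.5 and 240.2, and TP63 and ITGB4 were also higher. The part of these shifts in the results was not tested.

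In untreated cells the receptor RARG stood highest of the 9 genes, at 47.9 ± 0.954 FPKM (mean ± SD, n = 3 here and below). CRABP2 (20.4 ± 3.37) and ALDH1A3 (18.6 ± 1.31) followed, and their ranges over the 3 libraries overlapped, so that their order is not settled. DHRS3 came next (16.1 ± 0.574), below ALDH1A3 in all 3 libraries, but its range reached that of CRABP2, and in untreated replicate 3 it lay above CRABP2 (16.72 against 16.61 FPKM). RARA (12.1 ± 0.520), RDH10 (5.85 ± 0.364), RDH16 (1.86 ± 0.292), SDR16C5 (1.41 ± 0.131) and DHRS9 (0.88 ± 0.070) followed in FPKM, each with a range clear of all the others. In EGF-treated cells ALDH1A3 (27.0 ± 1.03 FPKM) and RARG (26.1 ± 0.738 FPKM) shared the top with overlapping ranges, and RDH16 was last. In bleogen pB1-treated cells RARG (44.5 ± 1.64 FPKM) and CRABP2 (24.8 ± 5.77 FPKM) stood highest. The range of DHRS3 there overlapped that of RDH10 (6.14 to 6.42 FPKM), with replicate 2 below it (6.04) and replicates 1 and 3 above it (9.30 and 7.61).

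**Figure D1:**
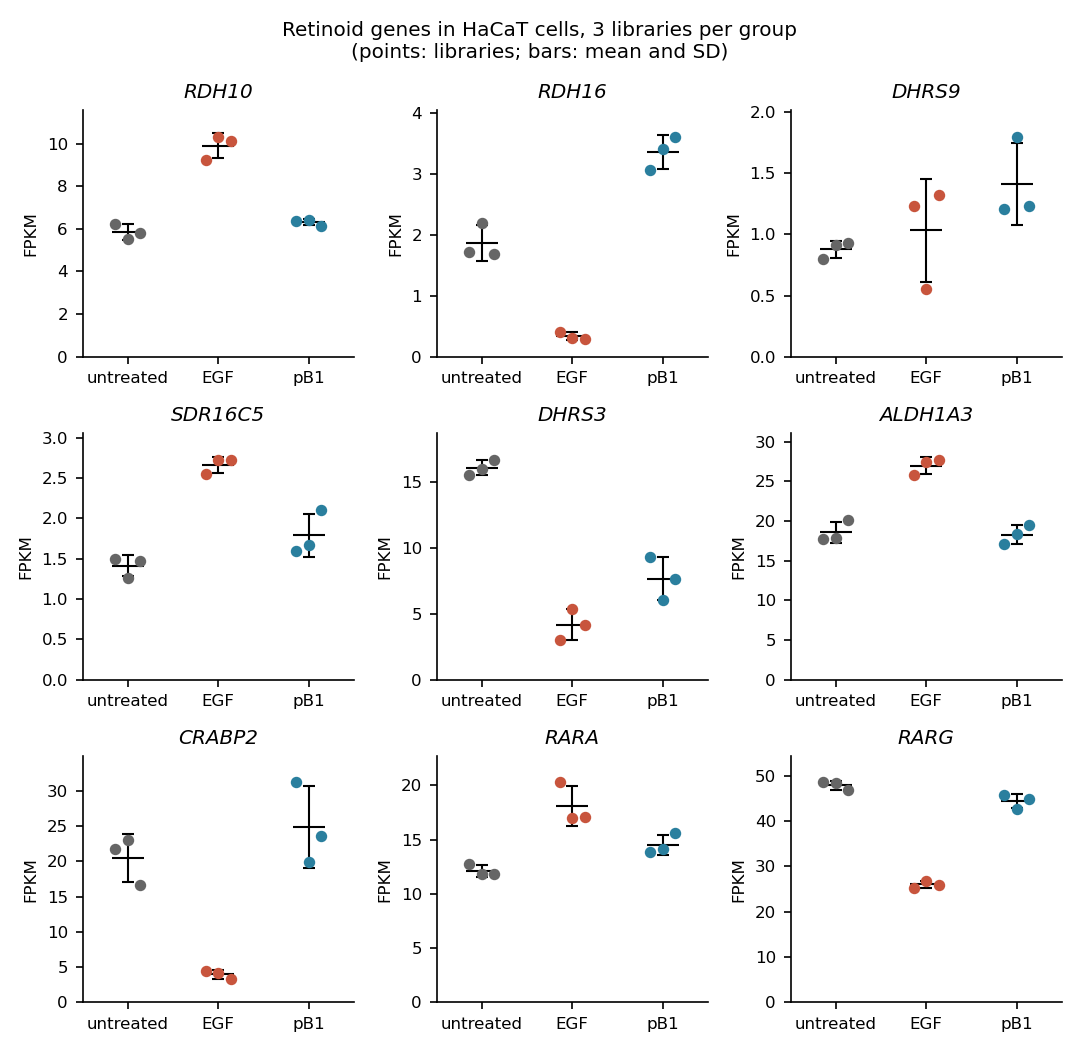
FPKM (vertical axes, from 0, a scale per gene) of the 9 retinoid genes in untreated, EGF-treated and bleogen pB1-treated (pB1) HaCaT cells. Points are the 3 libraries of a group and bars the mean and SD. RDH16 lies between 1.68 and 2.20 FPKM in untreated cells, between 0.29 and 0.41 with EGF and between 3.06 and 3.61 with bleogen pB1.

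The first question is what EGF did to the genes of retinoic acid synthesis and response. Of the 9 genes, 4 rose (RDH10, SDR16C5, ALDH1A3 and RARA) and 4 fell (RDH16, DHRS3, CRABP2 and RARG), and DHRS9 was not called. Over all genes tested, 15.1% were called upregulated and 21.8% downregulated by EGF. The CPM ranges of EGF-treated and untreated libraries were apart for 8 of the 9 genes, against 70.4% of all genes tested. The median size of the log2 fold change was 0.82 for the 9 genes and 0.39 for all genes. These are bulk values, in which fewer cells of a kind and less RNA per cell cannot be told apart. The 9 genes were chosen with earlier results of these data known, so their comparisons with all genes are descriptions only.

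RDH10, on chromosome 8 (73294602 to 73325281, plus strand, GRCh38), encodes a main retinol dehydrogenase of retinoic acid synthesis. It stood at 6.24, 5.52 and 5.79 FPKM in untreated replicates 1 to 3 and at 9.24, 10.3 and 10.1 FPKM with EGF. Each EGF library lay above each untreated library, with a log2 fold change of 0.82 (SE 0.076, adjusted p = 1.4e-06). RDH10 overlaps RDH10-AS1 and RPL7 on the opposite strand and its expected count was not whole in 8 of 9 libraries, so reads may have been divided with another gene.

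SDR16C5 encodes a further retinol dehydrogenase, known from epidermis, and lies on the same chromosome (56300005 to 56320776, minus strand). It was measured at 1.5, 1.26 and 1.47 FPKM in untreated cells and at 2.55, 2.72 and 2.73 FPKM with EGF. The groups did not overlap, and the log2 fold change of 0.98 (SE 0.14, adjusted p = 3.7e-05) was the largest rise among the 9 genes.

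RDH16, a retinol dehydrogenase that also acts on steroids, moved the other way. It is encoded on chromosome 12 (56951431 to 56959374, minus strand) and was read from 117 to 152 counts in untreated libraries and 21 to 28 with EGF. Its level was 1.71, 2.20 and 1.68 FPKM in untreated cells and 0.41, 0.30 and 0.29 FPKM with EGF. The counts were 5.40-fold lower with EGF (log2 fold change -2.43, SE 0.19, adjusted p = 3.3e-07), the largest fall of the 9 genes.

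DHRS9 (chromosome 2, 169064789 to 169096167, plus strand), a dehydrogenase of retinol and other substrates, was read from 17 to 58 counts per library. It had the fewest counts of these genes in each untreated and bleogen pB1 library. In EGF replicates 1 and 3 RDH16 had fewer (28 and 21, against 39 and 41). It stood at 0.80, 0.91 and 0.93 FPKM in untreated cells and at 1.23, 0.55 and 1.32 FPKM with EGF. EGF replicate 2 lay below all untreated libraries and the others above them. The log2 fold change was 0.25, with a 95% interval from -0.43 to 0.94 (adjusted p = 0.50). The value rested on single libraries, at 0.56 (adjusted p = 0.091) without EGF replicate 2, 0.09 without EGF replicate 1 and 0.07 without EGF replicate 3, so that the spread between replicates leaves the direction unsettled.

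DHRS3 encodes the retinal reductase that returns retinal to retinol, and its gene is known to be induced by retinoic acid. It lies on chromosome 1 (12567910 to 12618210, minus strand). It stood at 15.58, 16.03 and 16.72 FPKM in untreated cells and at 3.02, 5.39 and 4.12 FPKM with EGF. The 3 EGF libraries lay far below the untreated ones, with counts 3.67-fold lower (SE of the log2 fold change 0.21, adjusted p = 5.4e-06). DHRS3 and RDH16 were the genes among the 9 that were called under both treatments, and the sequence before their RefSeq starts is therefore shown next.

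RefSeq promoter windows on GRCh38, matched by symbol, were found for 7 of the 9 genes (14 windows), and the 250 bases before each start were searched on both strands. The letters searched were 4 hexamers that RARs and related receptors can bind as spaced repeats, namely AGGTCA with the variants AGTTCA as well as GGGTCA together with GGTTCA. The core TGANTCA, bound by AP-1 factors, which act downstream of the EGF receptor, was searched too. Capitals mark the letters found. In GENCODE 44 the RDH16 window lies wholly within an exon of the gene (250 of 250 bases), and the middle DHRS3 window holds 6 exon bases. Only 30 bases around the hexamer are therefore shown for them. The bases before the GENCODE start of RDH16 were not searched.
RDH16, chr12:56957648-56957677, minus strand: tactgcaaaagcAGTTCAaagagcagagag
DHRS3 upstream start, chr1:12618211-12618460, minus strand: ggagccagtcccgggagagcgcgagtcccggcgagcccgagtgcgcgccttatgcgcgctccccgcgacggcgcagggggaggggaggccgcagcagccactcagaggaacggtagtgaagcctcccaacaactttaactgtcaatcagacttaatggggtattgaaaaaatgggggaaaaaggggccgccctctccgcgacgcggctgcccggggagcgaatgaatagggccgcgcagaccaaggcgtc
DHRS3 middle start, chr1:12616944-12616973, minus strand: tcttttttggcaGGTTCAgagttgatccgc
DHRS3 downstream start, chr1:12596614-12596863, minus strand: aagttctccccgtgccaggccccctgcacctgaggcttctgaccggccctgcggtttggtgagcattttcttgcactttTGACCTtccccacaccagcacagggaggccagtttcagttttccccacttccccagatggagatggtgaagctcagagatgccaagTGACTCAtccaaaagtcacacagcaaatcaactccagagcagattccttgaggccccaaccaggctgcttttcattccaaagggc

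The upstream DHRS3 window held 0 of these motifs and 65.2% G and C. The downstream window, inside an intron of the gene, held TGACCT, which reads as the opposite strand of the leading hexamer, at bases -171 to -166, counted back from its start, and TGACTCA at -85 to -79. RDH16 held AGTTCA at -57 to -52. Windows of other retinoid genes held matches too. DHRS9, called under neither treatment, had AGTTCA and TGANTCA, RARA had AGGTCA and GGGTCA, and CRABP2 had GGTTCA, on either strand. Such letters are common. AGGTCA occurred in 12.1% of 34943 windows of the same length, AGTTCA in 8.81%, GGGTCA in 4208 of these windows, GGTTCA in 7.16% and TGANTCA in 6.59%. Direct repeats of the 4 hexamers with 5, 2 or 1 bases between them occurred in 0.0744%, 0.0286% and 0.0973% of all windows and in 0 of the 14 windows of these genes. A match describes letters in this window and no match says only that they are not in it.

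ALDH1A3 (chromosome 15, 100877714 to 100916626, plus strand), a retinal dehydrogenase that makes retinoic acid, was read at 17.8, 17.9 and 20.1 FPKM in untreated cells and at 25.8, 27.4 and 27.7 FPKM with EGF. The EGF libraries lay above all untreated libraries, with a log2 fold change of 0.62 (SE 0.068, adjusted p = 5.5e-06). Its antisense gene ALDH1A3-AS1 overlaps it, and whether the counting used the strand is not given in the sources used here.

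CRABP2 (chromosome 1, 156699606 to 156705816, minus strand) encodes the protein that delivers retinoic acid to RARs and is itself known as a retinoic acid target in skin. Its level was 21.7, 23.0 and 16.6 FPKM in untreated cells and 4.46, 4.14 and 3.28 FPKM with EGF. The counts fell 4.91-fold (log2 fold change -2.30, SE 0.20, adjusted p = 6.8e-07), and the groups were far apart. Another gene overlaps CRABP2 on the opposite strand, which carries the same limit as for ALDH1A3.

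The receptors moved in opposite directions with EGF. RARA (chromosome 17, 40309180 to 40357643, plus strand) rose from 12.7, 11.8 and 11.8 FPKM in untreated cells to 20.3, 17.0 and 17.1 FPKM, a log2 fold change of 0.64 (SE 0.082, adjusted p = 1.8e-05). RARG (chromosome 12, 53210567 to 53232980, minus strand) fell from 48.5, 48.4 and 46.8 FPKM to 25.4, 26.8 and 26.0 FPKM, a log2 fold change of -0.80 (SE 0.054, adjusted p = 8.5e-08). Neither receptor's groups overlapped, and RARG had the smallest SD of the 9 genes in untreated cells relative to its mean. RARA-AS1 overlaps RARA on the opposite strand.

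**Figure D2:**
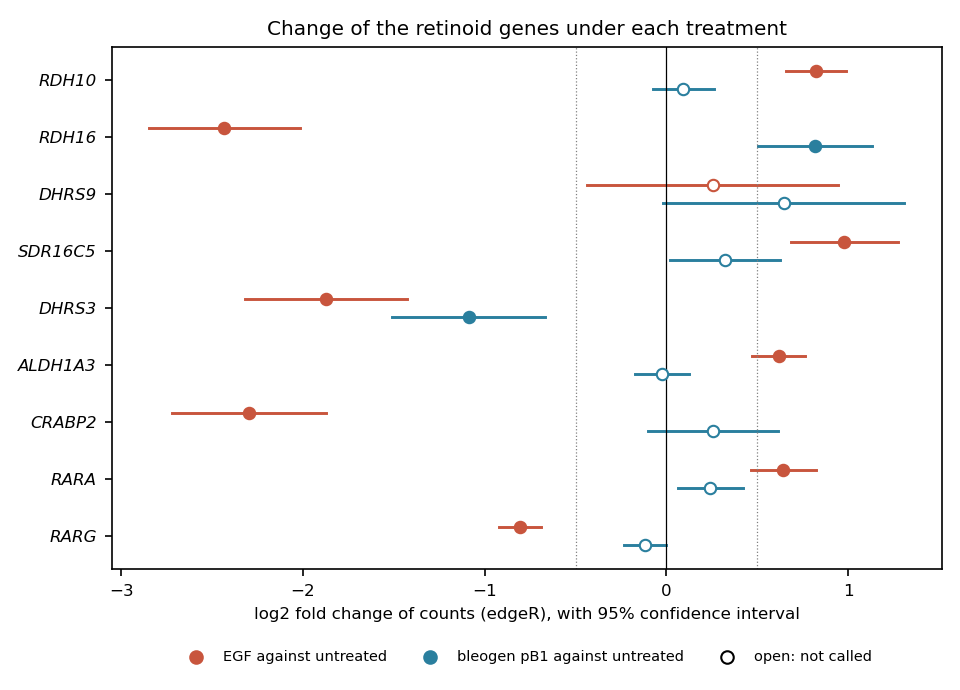
Log2 fold change of the counts (horizontal axis, edgeR) of the 9 genes against untreated cells, with EGF in red and bleogen pB1 in blue. Lines are 95% confidence intervals, open points were not called, and dotted lines mark a log2 fold change of 0.5 in size. With EGF 8 genes are called, and with bleogen pB1 RDH16 and DHRS3 are called.

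The second question is what bleogen pB1 did to the same genes. RDH16 rose and DHRS3 fell, and the other 7 genes were not called. Over all genes tested, 0.218% were called upregulated and 1.26% downregulated by bleogen pB1. The CPM ranges of treated and untreated libraries were apart for 6 of the 9 genes, against 29.0% of all genes. The median size of the log2 fold change was 0.25 for the 9 genes and 0.12 for all genes. Because of how the 9 genes were chosen, these comparisons too are descriptions only. Both treatments were compared with the same untreated libraries, so that the results for EGF and bleogen pB1 are not independent.

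RDH16 stood at 3.06, 3.40 and 3.61 FPKM with bleogen pB1, above its 1.68 to 2.20 FPKM in untreated cells. The log2 fold change was 0.82 (SE 0.15, 95% interval 0.50 to 1.13, adjusted p = 0.0077). The call was lost in 3 of the 6 fits that left out 1 library, with a log2 fold change of 0.76 (adjusted p = 0.065) without untreated replicate 1, 0.74 (adjusted p = 0.052) without untreated replicate 3 and 0.76 (adjusted p = 0.062) without bleogen pB1 replicate 3. The treated and untreated libraries did not overlap, and the direction was the same in each of these fits.

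DHRS3 stood at 9.30, 6.04 and 7.61 FPKM with bleogen pB1, and each of these libraries lay below the untreated ones. The counts were 2.13-fold lower (log2 fold change -1.09, SE 0.19, adjusted p = 0.0077). Without bleogen pB1 replicate 3 the call was lost at the same log2 fold change of -1.09 (adjusted p = 0.054), and it held in the other 5 of 6 such fits.

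Of the genes that bleogen pB1 did not change by the rule, 4 had CPM ranges clear of untreated cells. DHRS9 was read at 1.21, 1.80 and 1.23 FPKM (log2 fold change 0.65, 95% interval -0.02 to 1.31, adjusted p = 0.24). SDR16C5 was read at 1.60, 1.67 and 2.10 FPKM (0.32 on the log2 scale, interval 0.02 to 0.62, adjusted p = 0.20). The receptors differed least in size, RARA at 13.8, 14.1 and 15.6 FPKM (0.24 on the log2 scale, interval 0.06 to 0.42, adjusted p = 0.11) and RARG at 45.9, 42.7 and 44.8 FPKM (-0.12, interval -0.23 to -0.004, adjusted p = 0.21).

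The other 3 had ranges that overlapped those of untreated cells. CRABP2 was the most scattered, at 31.2, 19.8 and 23.5 FPKM, with a log2 fold change of 0.25 and an interval from -0.10 to 0.61 (adjusted p = 0.39). This value was 0.05 without bleogen pB1 replicate 1, 0.12 without untreated replicate 3 and 0.39 without bleogen pB1 replicate 2. RDH10 stood at 6.38, 6.42 and 6.14 FPKM (0.09, interval -0.08 to 0.26, adjusted p = 0.51) and ALDH1A3 at 17.0, 18.3 and 19.5 FPKM (-0.02, interval -0.17 to 0.12, adjusted p = 0.87). For RDH10 and ALDH1A3 these intervals lie within the limit of 0.5 used for a call, whereas that of CRABP2 does not.

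EGF and bleogen pB1 were given at different doses, 10 nM and 1 µM, so that their direct contrast compares these 2 conditions and not the agents at a matched dose. Of the 9 genes, 3 were called higher with EGF (RDH10, SDR16C5 and ALDH1A3) and 4 lower (RDH16, DHRS3, CRABP2 and RARG). Of all genes tested, 10.8% were called higher with EGF and 18.0% lower. The CPM ranges were apart for 7 of the 9 genes, against 62.4% of all genes. The limit from the choice of the 9 genes holds here as well. The widest difference was that of RDH16, whose counts were 9.51-fold lower with EGF than with bleogen pB1 (log2 fold change -3.25, SE 0.18, adjusted p = 2.7e-08).

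CRABP2 followed at -2.55 (SE 0.19, adjusted p = 3.6e-07). RDH10 differed by 0.73, SDR16C5 by 0.66, ALDH1A3 by 0.64 and RARG by -0.69, each as a log2 fold change of EGF against bleogen pB1. DHRS3 differed by -0.79 (SE 0.21, adjusted p = 0.0068), but its CPM in EGF replicate 2 (8.66) lay just above that in bleogen pB1 replicate 2 (8.58). RARA passed the p limit but not the fold limit (0.40, interval 0.23 to 0.58, adjusted p = 0.0010), and DHRS9 passed neither (-0.39, interval -1.04 to 0.26, adjusted p = 0.28).

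Next, 3 proportions within a library, chosen after the values had been seen, place these genes side by side. RARG made up 79.3, 80.4 and 79.9% of the summed RARA and RARG FPKM in untreated replicates 1 to 3, then 55.6, 61.2 and 60.3% with EGF and 76.8, 75.1 and 74.2% with bleogen pB1. The 3 groups did not overlap, with means of 79.8 ± 0.560%, 59.0 ± 3.01% and 75.4 ± 1.33% (SD, n = 3). RARG thus remained the more abundant RAR of this pair by FPKM in all 9 libraries.

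RDH10 is only 1 of the enzymes listed here that lead to retinal, and DHRS3 only 1 of those that lead from it. The FPKM of RDH10 over that of DHRS3 was 0.401, 0.344 and 0.346 in untreated cells. It was 3.06, 1.92 and 2.46 with EGF and 0.686, 1.06 and 0.807 with bleogen pB1. Both treated groups lay above the untreated libraries, and RDH10 exceeded DHRS3 in all 3 EGF libraries and in bleogen pB1 replicate 2. The ratio of RDH16 to RDH10 was 0.321 ± 0.0677 in untreated cells, 0.034 ± 0.00898 with EGF and 0.532 ± 0.0542 with bleogen pB1 (SD, n = 3). For each of the 3 proportions and each treatment against untreated, a two-sided exact permutation test over 3 and 3 libraries gave p = 0.1, the smallest value this design allows. Because the proportions were chosen with the separated values in view, these p-values cannot count as support. These ratios are of transcript levels and say nothing of enzyme activity.

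**Figure D3:**
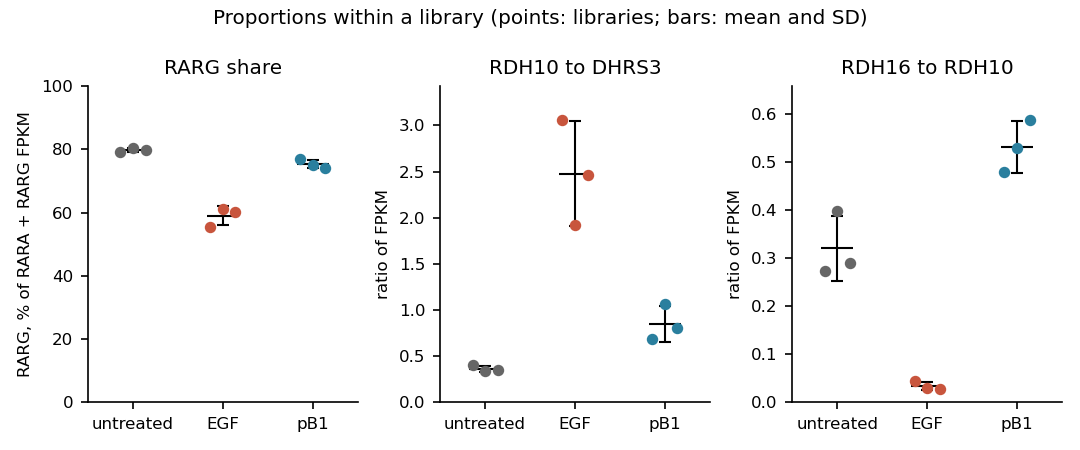
RARG as a percentage of the summed RARA and RARG FPKM (left), and the FPKM ratios of RDH10 to DHRS3 (middle) and RDH16 to RDH10 (right), in untreated, EGF-treated and bleogen pB1-treated (pB1) cells. Points are libraries and bars the mean and SD. With EGF the RARG percentage is lowest, 55.6 to 61.2, and RDH10 to DHRS3 highest, 1.92 to 3.06.

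The rest of the pathway was described with a list of 68 further genes. Of these, 7 had no counts in any library (among them RBP4, TTR, LPL, RDH8, CYP26C1 and CRABP1), 18 did not pass the count filter and 43 were tested. With EGF 5 of the 43 rose and 17 fell, against the 15.1% and 21.8% of all genes given above, and the median log2 fold change was -0.45 for the list and -0.01 for all genes. With bleogen pB1 0 of the 43 rose and 2 fell (STRA6 and BHLHE40), against 0.218% and 1.26% of all genes. The edgeR fit gave these 2 adjusted p-values of 0.0046 and 0.0044, and the list's median log2 fold change was -0.08, beside -0.001 for all genes. The list was chosen with earlier results of these data known, so its comparisons with all genes, here and below, are descriptions only.

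Among 8 tested genes of uptake and storage, STRA6, a membrane receptor for the uptake of retinol, was read from few counts. They numbered 20, 25 and 27 in untreated libraries, 1 in each EGF library and 8, 3 and 4 with bleogen pB1. Summed over libraries and scaled for depth, the EGF level was 4.10% of the untreated one (95% exact interval 0.826 to 12.5%) and the bleogen pB1 level 20.5% (10.9 to 36.0%), intervals that cover counting error only. The single counts with EGF lie below the floor of 3 counts in a library. STRA6 was not called for either treatment under limma on log2(FPKM + 1), at -0.50 with EGF and -0.40 with bleogen pB1, a scale that understates changes at such levels, and DESeq2 gave it no adjusted p for bleogen pB1. LRAT, which esterifies retinol for storage, rose with EGF at a low level, from 0.133 ± 0.0289 to 0.327 ± 0.142 FPKM (log2 fold change 1.33, adjusted p = 0.0055). The lipoprotein receptor SCARB1 rose by 0.64 on the log2 scale, and the receptor LRP1 fell by 0.65 on that scale.

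Among 13 tested genes of retinol and retinal interconversion, EGF raised DHRS2 and lowered RDH14, DHRS4 and AKR1B10. AKR1B10, a reductase that acts on retinal, stood at 7.97 ± 1.09 FPKM in untreated cells, 0.777 ± 0.0643 with EGF and 10.0 ± 3.12 with bleogen pB1, and its log2 fold change with EGF was -3.29 (SE 0.25, adjusted p = 2.8e-07). RDH14 and DHRS4 differed by -0.87 and -1.03 on the log2 scale, and DHRS2 by 1.23 at 0.26 to 0.60 FPKM on average. AKR1B10 and DHRS4 have near-identical copies in the genome, so their counts are uncertain. RDH11, a retinal reductase at 69.0 ± 3.08 FPKM in untreated cells, was with AKR1B1 (67.1 ± 1.89 FPKM, overlapping ranges) the most abundant of these genes, and had a log2 fold change of 0.01 with EGF (adjusted p = 0.92).

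Of the retinal dehydrogenases, ALDH1A1 was tested beside ALDH1A3 and fell with EGF. It gave 3.06, 2.62 and 3.01 FPKM in untreated libraries, 0.38, 0.32 and 0.30 with EGF and 2.26, 2.83 and 2.88 with bleogen pB1. The EGF values of ALDH1A1 came from only 18, 15 and 15 counts. The log2 fold change with EGF was -3.05 (SE 0.19, adjusted p = 4.5e-08), opposite in direction to that of ALDH1A3. Among enzymes that break down retinoic acid, CYP26B1 stood at 0.597 ± 0.0961 FPKM in untreated cells and at 1.38 ± 0.293 with EGF (log2 fold change 1.29, adjusted p = 9.7e-05), whereas CYP2S1 fell by 0.57 on the log2 scale. CYP26A1 had at most 2 counts in a library.

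RARB, the RAR whose own gene is a classical retinoic acid target, gave 2.97, 3.09 and 2.90 FPKM in untreated cells and 0.06, 0.26 and 0.21 with EGF. The EGF values came from only 3, 14 and 12 counts. All EGF libraries lay far below the untreated ones (log2 fold change -4.00, SE 0.36, adjusted p = 9.6e-07). With bleogen pB1 RARB stood at 2.11, 1.08 and 2.12 FPKM, below each untreated library, but it was not called (-0.78, SE 0.26, adjusted p = 0.099). Only edgeR on the 6 libraries compared alone called it among the alternatives (adjusted p = 0.048). The adjusted p was 0.052 with DESeq2 and 0.11 with the replicate block in edgeR. In the edgeR fit without bleogen pB1 replicate 2 the log2 fold change was -0.52 (adjusted p = 0.30). RXRB, a partner of the RARs, fell with EGF (log2 fold change -0.84, adjusted p = 9.7e-06), and RXRA, the more abundant partner at 64.4 ± 0.276 FPKM in untreated cells, had a log2 fold change of -0.45 that missed the fold limit.

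Of 6 tested coregulators of nuclear receptors, EGF lowered 3, NCOA2 (log2 fold change -1.12), NRIP1 (-0.67) and NCOA1 (-0.54), against 21.8% of all genes. Of 9 tested genes known to respond to retinoic acid, 1 rose and 5 fell with EGF, against 15.1% and 21.8% of all genes. The riser was TGM2, a transglutaminase, at 0.53, 0.91 and 0.46 FPKM in untreated cells and 3.21, 6.54 and 4.82 with EGF (log2 fold change 2.98, SE 0.29, adjusted p = 1.7e-06). KRT4 and KRT13, keratins of moist surface epithelia, fell by 3.56 and 1.90 on the log2 scale, and PLAAT4, listed in the files under its older name RARRES3, fell by 2.15. The other fallers were GPRC5A and KRT19, named outside the rule for named genes. Keratin genes resemble each other closely, which limits the certainty of their counts. Whether retinoic acid had a part in the changes of these 9 genes was not tested.

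BHLHE40, a circadian and stress-responsive repressor also known to respond to retinoic acid, was the one gene of the list called with bleogen pB1 and not with EGF. It gave 26.9, 26.2 and 26.1 FPKM in untreated cells, 15.6, 12.9 and 15.2 with bleogen pB1 and 20.5, 34.6 and 26.1 with EGF. The bleogen pB1 libraries lay below all others (log2 fold change against untreated -0.88, SE 0.14, adjusted p = 0.0044), and the direct contrast of EGF against bleogen pB1 was 0.98 (adjusted p = 8.9e-05).

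**Figure D4:**
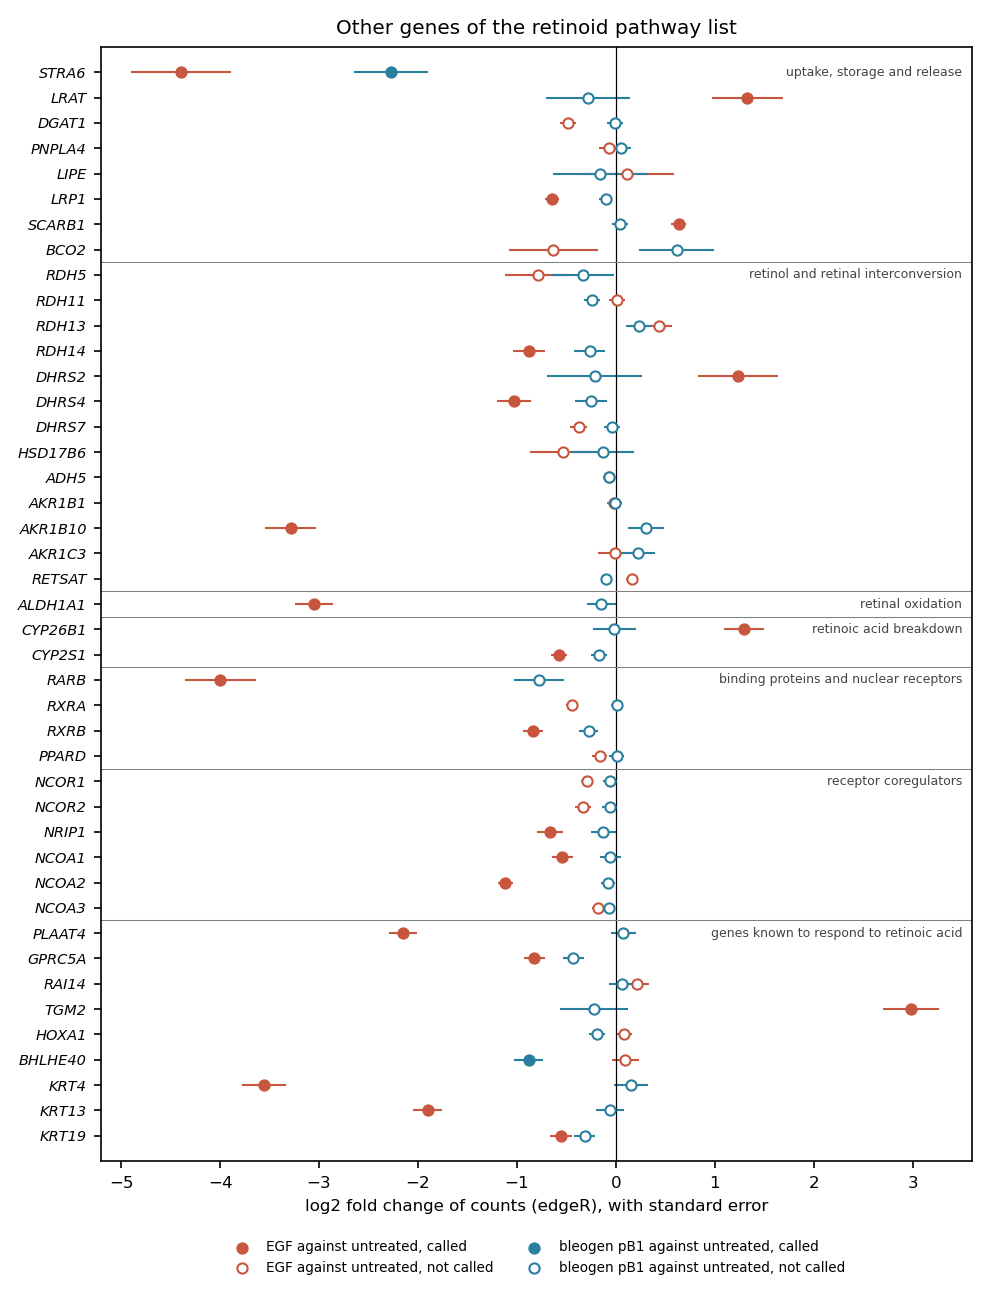
Log2 fold change of the counts with standard error (horizontal axis, edgeR) of the 43 tested genes of the retinoid pathway list, grouped by role, with EGF in red and bleogen pB1 in blue and filled points for called genes. EGF points range from STRA6 at -4.39, fitted from 1 count in each EGF library, to TGM2 at 2.98, and with bleogen pB1 STRA6 and BHLHE40 are filled.

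For the largest rise and the largest fall with EGF among the 9 genes, the genes with the most similar pattern were sought over the 9 libraries, by the Euclidean distance of log2 CPM centred on the untreated mean. Nearest to SDR16C5 were C10orf88 (distance 0.217), DDHD1 (0.306) and SDF2L1 (0.310). C10orf88 had mean FPKM of 3.04, 5.81 and 3.78 in untreated, EGF-treated and bleogen pB1-treated cells. By this distance no gene came as close to RDH16, for which PLXDC1, SOX6 and RHOV lay at 1.17, 1.18 and 1.18. RHOV had mean FPKM of 12.1, 2.52 and 15.6 in the same order, and PLXDC1 and SOX6 stayed at or below 0.123 FPKM on average. The Pearson correlations of PLXDC1, SOX6 and RHOV with RDH16 were 0.96, 0.96 and 0.97. Those of C10orf88, DDHD1 and SDF2L1 with SDR16C5 were little higher, at 0.99, 0.98 and 0.97.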

How the data were processed

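HaCaT libraries (3 untreated, 3 EGF, 3 bleogen pB1) were grouped by their titles and treatments. The authors had reads mapped to GRCh38.p12, as the submitters' processing notes and the methods state. Each gene's expected count, as deposited by the authors, is an unscaled estimate from a program not given in the sources used here. The FPKM deposited by the authors are these counts scaled for effective gene length and library size, and the gene length deposited beside them is an average over transcripts. Genes absent from a library's file were counted as 0. The methods name the PureLink kit and a BGISEQ instrument, the labels the RNeasy kit and DNBSEQ; libraries were of polyadenylated RNA with dUTP strand marking.

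After rounding, the counts entered edgeR 4.0.16, run in R 4.3.3 (filterByExpr, TMM, glmQLFit and glmQLFTest, all 9 libraries in 1 fit, Benjamini-Hochberg adjustment). The limits for a call were those of the study, which used DESeq2. The study reported more genes up than down with EGF, whereas 1875 were called up and 2703 down here. The cause of this difference was not tested. The standard error is the log2 fold change over the square root of the F statistic. Alternatives were DESeq2 1.42.0, limma 3.58.1 on log2(FPKM + 1) or log2(FPKM + 0.1), other scalings, filters, fold limits and samples, each library left out, and a replicate block. Same-numbered libraries deviated together with correlations of -0.03 to 0.207 over 9 pairs, so the numbers were not treated as pairs. Tables were made in Python 3.11.15 with pandas 2.3.3, scipy 1.17.1 and numpy 2.4.6. The scripts were tested on simulated data. Coordinates are 1-based, from GENCODE 44, and promoter sequences are RefSeq's.

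The 9 genes and the pathway list were chosen with earlier results of these data known. Named from the list were, per role and treatment, up to 3 called genes with the smallest adjusted p in each direction, all genes called with bleogen pB1 and genes without counts, of which 1 is not reported here; RDH11, AKR1B1, RXRA, CYP26A1, GPRC5A, KRT19, ADH5 and the genes below the count filter named in the closing observations were added after their values were seen.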

Additional observations from a re-analysis of the deposited data

How the results depend on the processing

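The 9 genes kept their direction and call with EGF in all 153 values over 17 alternative settings. With bleogen pB1, 146 of 152 values did so. The calls of RDH16 and DHRS3 depended on single libraries, as given with them, and ALDH1A3 changed sign at 0.0306 without untreated replicate 3 and at 0.0218 without bleogen pB1 replicate 1 (range without 1 library -0.0713 to 0.0306), never called. In EGF against bleogen pB1, SDR16C5 fell below the fold limit under limma on log2(FPKM + 1), at 0.40, a scale that understates the change of low genes, with and without a filter on FPKM, and the other 151 of 153 values kept their call.

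A log2 fold change of at least 1 left 3, 1 and 2 of the 9 genes called for EGF, bleogen pB1 and EGF against bleogen pB1. It left 13, 1 and 13 of the pathway list and 1892, 31 and 1458 of all genes. The 3 retinoid genes left for EGF (RDH16, DHRS3 and CRABP2) all fell, and none of the 4 rises reached this limit. By the adjusted p alone, 8187, 509 and 7214 of all genes passed, and 31 of the list in EGF against bleogen pB1. For EGF the list gave 18 calls, in place of 22, under limma on log2(FPKM + 1). It gave 25 with upper-quartile scaling, with library size only and under limma on log2(FPKM + 0.1). For bleogen pB1 it gave 1 call, in place of 2, under DESeq2 (no adjusted p for STRA6) and under limma on log2(FPKM + 1) with or without a filter on FPKM. That limma fit called 99 of all genes, in place of 183, and the cause was not tested. Leaving out 1 library gave 0 to 2 of the 9 genes for bleogen pB1, 0 without its replicate 3 and 1 without untreated replicate 1 or 3. The list gave 2 to 4, 4 without bleogen pB1 replicate 1 (AKR1B10 and GPRC5A added). All genes gave 102 to 436: 102 without untreated replicate 1 or bleogen pB1 replicate 3, 109 without bleogen pB1 replicate 2 and 436 without bleogen pB1 replicate 1.

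With the replicate block, 8, 2 and 7 of the 9 genes were called for the 3 comparisons, the numbers of the fit without it, and 4560, 186 and 3550 of all genes. Low counts limit DHRS9, STRA6, LRAT and DHRS2 and, with EGF, also RDH16, RARB, ALDH1A1 and AKR1B10.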

Other observations

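Several further genes of the pathway were read too thinly to be tested. Of the alcohol dehydrogenases that can oxidize retinol, ADH1A and ADH1B had at most 1 count and ADH1C and ADH7 at most 3 and 4 counts in a library, whereas ADH5 stood at 39.8 ± 0.822 FPKM in untreated cells (SD, n = 3). ALDH1A2 had at most 2 counts in a library, RXRG at most 4, and RARRES1 at most 2. FABP5, a fatty acid binding protein that can also carry retinoic acid and is well known from keratinocytes, had at most 2 counts in a library. FABP5 has near-identical copies in the genome, and how the counting divided reads among them was not tested.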
